A study of Mus musculus with 8 samples.

Results

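The nonclassical MHC class I genes described here are 10 rows of a count table of 47937 genes: H2-Q1, H2-Q2, H2-Q4, H2-Q5, H2-Q6, H2-Q7 and H2-Q10 of the H2-Q cluster, and H2-T10, H2-T22 and H2-T23 of the H2-T cluster. They were chosen by name with their counts in the 2 genotypes, and the differences between these, already known, so every comparison of the genotypes in these 10 genes is a description and carries no test. RNA was taken from mature CD8 single-positive (CD8SP) thymocytes that were sorted as TCRb+ with high surface MHC class I. The Ndrg3 ctrl group holds 4 mice of the genotype Ndrg3 +/fl;Lck-cre+ and the Ndrg3 TKO group 4 mice of the genotype Ndrg3 fl/fl;Lck-cre+, all 6 to 7 weeks old, with 1 library per mouse. The controls thus carry Lck-cre and a floxed Ndrg3 allele too, and Lck-cre, driven by the proximal Lck promoter, acts from early thymocyte stages onwards, so loss of Ndrg3 preceded the stage that was sorted. Because the gate was set on surface MHC class I, cells with little of it were left out of both groups.

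Classical MHC class I molecules show peptides from inside the cell to CD8 T cells. The nonclassical, or class Ib, molecules share their fold and mostly pair with beta-2-microglobulin, but vary little between individuals, are often expressed at lower levels and serve more specialised receptors. H2-Q6 and H2-Q7 encode the Qa-2 antigens, which are attached to the membrane through a lipid anchor and can bind CD8. H2-T23 encodes Qa-1, which presents leader peptides of other class I molecules to the CD94/NKG2 receptors, and H2-T10 and H2-T22 encode ligands of some gamma delta T cell receptors. Class I promoters are known to carry a kappaB element, an interferon-stimulated response element (ISRE) and an X and a Y box, the latter pair being bound by the complex through which NLRC5 activates these genes.

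The part of the promoter that carries these elements is shown for the 2 Qa-2 genes, for their neighbour H2-Q4 and for H2-T22, since these 4 differ in the exact matches they hold. The sequences are the 250 bases before the RefSeq start (GRCm38.p6), and 7 of the 10 genes had an entry (H2-Q2, H2-Q4, H2-Q6, H2-Q7, H2-Q10, H2-T22 and H2-T23). Capitals mark exact matches on either strand to GGGGATTCCC (kappaB), AGTTTCACTT (ISRE), TGATGAC (X box) and CCAAT (Y box). The kappaB and ISRE letters are those of the promoter of H2-K1, the classical gene for H-2K. The stretches are chr17:35379367-35379616 (plus strand) for H2-Q4, chr17:35424600-35424849 (plus) for H2-Q6, chr17:35438905-35439154 (plus) for H2-Q7 and chr17:36042743-36042992 (minus) for H2-T22.
H2-Q4: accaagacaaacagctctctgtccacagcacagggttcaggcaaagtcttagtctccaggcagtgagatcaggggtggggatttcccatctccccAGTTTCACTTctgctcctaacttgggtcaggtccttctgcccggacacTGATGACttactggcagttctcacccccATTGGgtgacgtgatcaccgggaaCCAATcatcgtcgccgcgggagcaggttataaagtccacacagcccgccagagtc
H2-Q6: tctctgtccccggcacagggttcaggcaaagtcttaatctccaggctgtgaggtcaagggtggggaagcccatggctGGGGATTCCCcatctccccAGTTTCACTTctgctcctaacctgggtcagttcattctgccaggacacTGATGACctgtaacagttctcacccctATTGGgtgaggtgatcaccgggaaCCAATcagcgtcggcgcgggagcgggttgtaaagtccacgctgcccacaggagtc
H2-Q7: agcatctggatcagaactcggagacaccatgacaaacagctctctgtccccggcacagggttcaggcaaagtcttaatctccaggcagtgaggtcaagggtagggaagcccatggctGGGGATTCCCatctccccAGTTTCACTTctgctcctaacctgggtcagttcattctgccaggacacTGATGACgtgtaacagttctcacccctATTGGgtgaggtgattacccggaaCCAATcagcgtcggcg
H2-T22: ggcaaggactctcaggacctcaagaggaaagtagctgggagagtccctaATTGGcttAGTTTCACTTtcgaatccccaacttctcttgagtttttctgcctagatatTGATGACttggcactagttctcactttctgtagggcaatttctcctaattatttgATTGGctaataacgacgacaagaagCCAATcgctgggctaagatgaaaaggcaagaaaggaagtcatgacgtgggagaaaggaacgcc

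H2-Q6 and H2-Q7 both held all 4 motifs, and the only other such stretch among the 32851 promoters of the same length was that of the classical gene H2-D1, so that 3 promoters, or 0.00913%, held all 4. No 2 of the 4 motifs shared bases in these stretches. Alone, the kappaB letters stood in 0.0852% of promoters, the ISRE letters in 0.128%, the X box letters in 2.69% and the Y box letters in 33.8%. The kappaB and ISRE letters were read from H2-K1. Its stretch was identical to those of H2-Q6 and H2-Q7 at 87.43 and 87.86% of aligned bases. Matches in class I genes, and low shares over all promoters, were thus partly built in by this choice. H2-Q4 and H2-T22 held the ISRE, X box and Y box letters, H2-Q10 the ISRE letters alone, and H2-Q2 and H2-T23 the Y box letters alone. The stretches of H2-Q6 and H2-Q7 were identical at 97.62% of 210 aligned bases, and those of H2-Q4 and H2-Q6 at 88.89% of 234. A match is an exact string of letters and was not tested for binding, and sites with other letters were not counted. Before its ISRE, H2-Q4 holds ggggatttccc, which differs from the kappaB letters by an extra T.

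**Figure D1:**
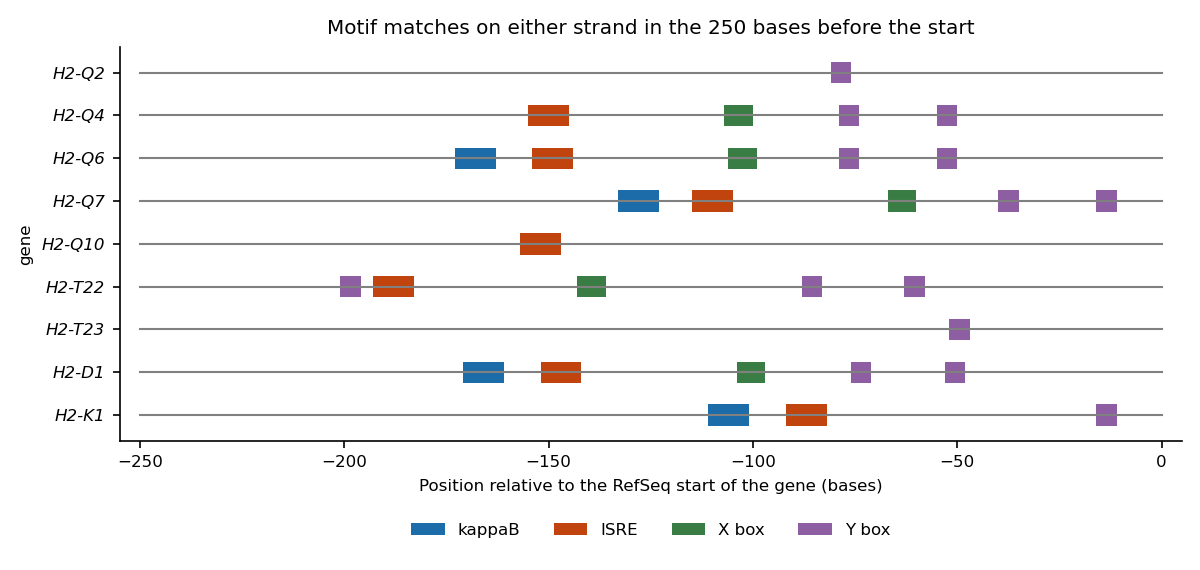
Motif matches on either strand in the 250 bases before the RefSeq start (x axis, bases relative to the start) for 7 members and for H2-D1 and H2-K1 (rows; the first of the RefSeq entries for H2-K1). Boxes are matches drawn to scale. H2-Q6, H2-Q7 and H2-D1 are the 3 rows with all 4 motifs, and in H2-Q7 the set lies closer to the annotated start, at 133 to 16 bases before it.

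The first coding bases of the 4 neighbouring genes H2-Q4 to H2-Q7 show how alike the copies are. The first 63 coding bases, which lie in exon 1, are given from GENCODE transcripts (GRCm38), with capitals where a base differs from H2-Q7. They lie at chr17:35379644-35379706, chr17:35394126-35394188, chr17:35424877-35424939 and chr17:35439221-35439283, all on the plus strand.
H2-Q4: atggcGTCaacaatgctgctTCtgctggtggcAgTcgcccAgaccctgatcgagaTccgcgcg
H2-Q5: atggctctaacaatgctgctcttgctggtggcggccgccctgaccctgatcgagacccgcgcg
H2-Q6: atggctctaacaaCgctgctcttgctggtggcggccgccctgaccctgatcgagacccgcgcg
H2-Q7: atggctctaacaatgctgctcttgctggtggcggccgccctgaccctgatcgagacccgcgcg

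H2-Q5 did not differ from H2-Q7 over these bases and H2-Q6 differed at 1 (T14C, counted from 1 at the first coding base, with the base of H2-Q7 first). H2-Q4 differed at 9. Over the whole aligned coding sequence, H2-Q5 and H2-Q7 were identical at 96.58% of bases, H2-Q6 and H2-Q7 at 95.4% and H2-Q5 and H2-Q6 at 94.85%, against 89.39 to 90.8% for H2-Q4 with these 3. The other close pair was H2-T10 with H2-T22, at 96.31%, whereas H2-T23 reached at most 83.01% with any member, in its pairing with H2-Q6.

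Such copies can exchange reads in counting, and how reads with several matches were treated is not given in the sources used here. Of all 50-base windows in the annotated transcripts of H2-Q5, 36.45% also occurred in the transcripts of another gene, most of them in H2-Q7. The share was 31.97% for H2-Q6, 26.41% for H2-Q7, 34.5% for H2-T22, 32.91% for H2-T10 and 13.6% for H2-T23. With windows of 100 bases, it fell to 14.01% for H2-Q5, 10.78% for H2-Q6, 11.98% for H2-Q7 and 2.159% for H2-Q4. The split of counts within H2-Q5, H2-Q6 and H2-Q7, and between H2-T10 and H2-T22, is therefore uncertain.

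**Figure D2:**
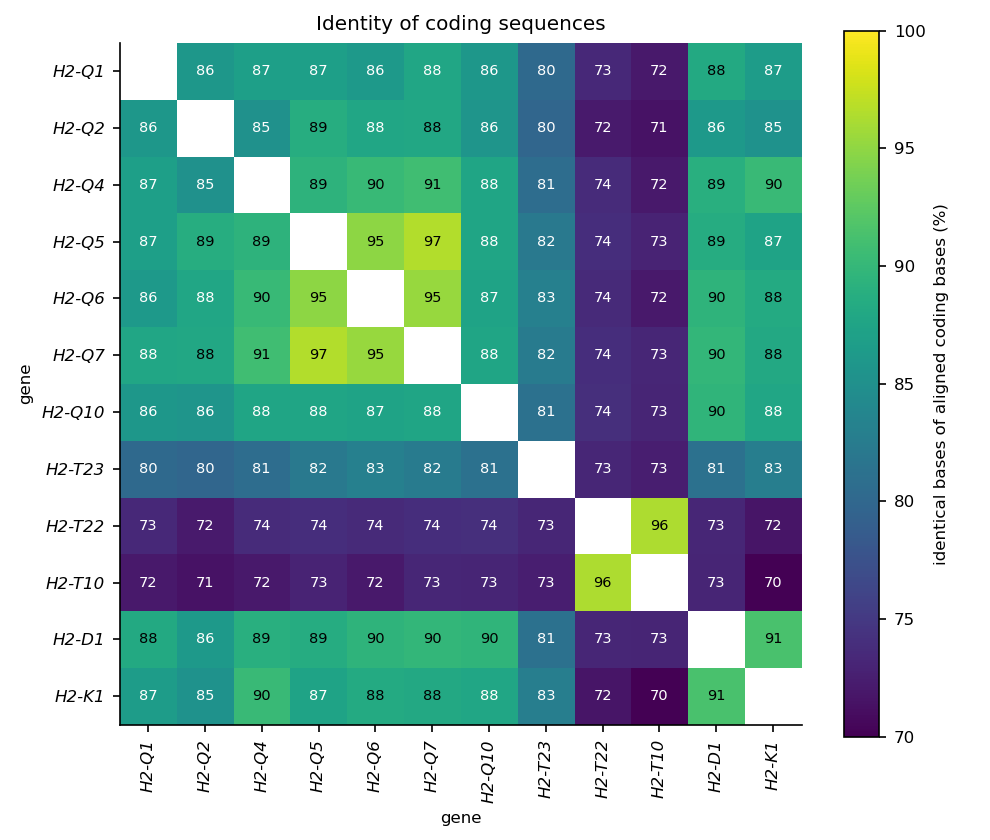
Percentage of identical bases (colour and figures, rounded) in pairwise alignments of the longest complete coding sequence of each of the 10 members and of the classical genes H2-D1 and H2-K1 (both axes). H2-Q5, H2-Q6 and H2-Q7 form one block at 94.85 to 96.58%, and H2-T10 with H2-T22 another at 96.31%.

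Library totals ranged from 21126698 to 32668081 counts, and 3 counts, taken as the floor, corresponded to 0.0918 to 0.142 CPM, the unit used for single genes (counts scaled to a fixed library size). Ndrg3 itself, the targeted gene, was at 79.3, 81.5, 81.2 and 80.9 CPM in the 4 Ndrg3 ctrl libraries and at 50.4, 48.4, 53.1 and 55.3 CPM in the 4 Ndrg3 TKO libraries (log2 fold change −0.64 ± 0.05 SE, adjusted p = 1.04e-05, edgeR quasi-likelihood test). Only a critical exon of Ndrg3 is floxed, and the paper reports efficient depletion of the protein in thymocytes by immunoblot. Counts over the whole gene are thus no measure of the remaining protein. The library sizes behind CPM were scaled by TMM, and a gene is called where its edgeR p, adjusted by Benjamini-Hochberg over all 14633 tested genes, was under 0.05. T cell genes were high in both groups, with Cd8a at a mean of 1367 and 1351 CPM in Ndrg3 ctrl and Ndrg3 TKO, and the B cell markers Ms4a1, Pax5 and Fcer2a never passed 3 counts. Y-linked counts marked 1 Ndrg3 ctrl library (replicate 2) and 2 Ndrg3 TKO libraries (replicates 2 and 3). In these bulk samples, fewer cells that express a gene and less RNA per cell cannot be told apart.

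The levels of the members spanned a wide range. Per kilobase of exon, H2-Q4 (100.9 ± 4.09 CPM per kb, mean ± SD, n = 4), H2-T23 (99.9 ± 8.75) and H2-Q7 (90.6 ± 5.50) were highest in Ndrg3 ctrl cells, and neither H2-Q4 and H2-T23 nor H2-T23 and H2-Q7 were separated by their libraries. H2-T22 (59.3 ± 5.40), H2-Q6 (35.5 ± 4.87), H2-Q5 (22.6 ± 0.809) and H2-T10 (14.96 ± 2.14) followed, each with a range that did not overlap that of its neighbours in this order. H2-Q2 (0.582 ± 0.0736) was far lower. H2-Q10 and H2-Q1 were close to the floor. The classical heavy chains were well above all of them, at 451 ± 36.6 CPM per kb for H2-K1 and 448 ± 45.3 for H2-D1. In Ndrg3 TKO cells H2-Q7 (110.0 ± 9.13) stood first, ahead of H2-Q4 (106.4 ± 2.70) and H2-T23 (97.2 ± 5.67), with the other places as before, but the libraries of these 3 genes overlapped (99.1 to 121 CPM per kb for H2-Q7, 104.2 to 110.3 for H2-Q4 and 92.1 to 105.3 for H2-T23). There, H2-T22 (61.9 ± 4.34) and H2-Q6 (58.6 ± 8.20) were no longer separated by their libraries.

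**Figure D3:**
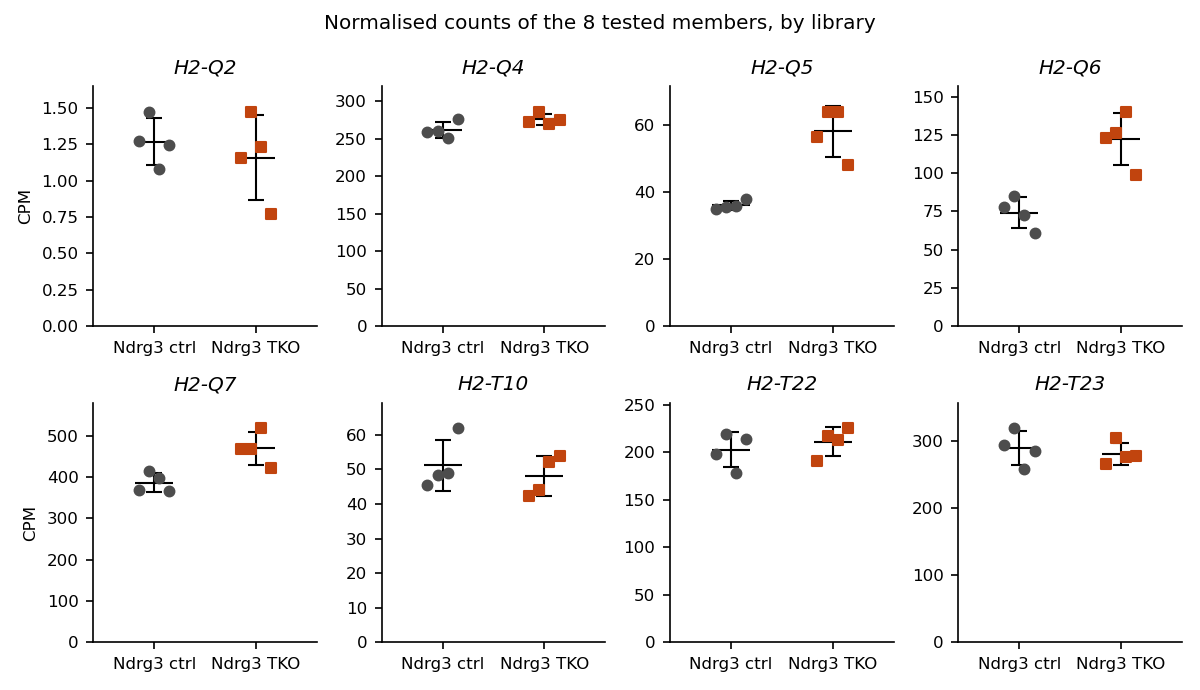
CPM (y axis, from 0, with a scale of its own in each panel) of the 8 members that passed the filter on low counts, in 4 Ndrg3 ctrl (grey circles) and 4 Ndrg3 TKO (orange squares) libraries, each point being 1 library. Black bars give the mean ± SD, and the groups are separate for H2-Q5, H2-Q6 and H2-Q7 and overlap in the other 5 panels.

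Among the 10 members, the 3 neighbouring genes H2-Q5, H2-Q6 and H2-Q7 were higher in every Ndrg3 TKO library than in any Ndrg3 ctrl library, and no member was lower in this way. Over all tested genes, 3.44% were higher and 3.59% lower without overlap. The filter on low counts was passed by 8 of the 10 members. Of these, 2 (H2-Q5 and H2-Q6) were called higher and 0 lower in edgeR, where 0.793% of all tested genes were called higher and 0.355% lower. By DESeq2, which called 1.92% of genes in either direction, H2-Q7 was called as well, and limma voom, which called 0.998%, called H2-Q5 and H2-Q6. The 10 genes were named with this contrast in view, so their counts are no evidence about the group. The median log2 fold change of the 8 tested members was 0.07, beside −0.0033 over all tested genes.

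H2-Q6 (ENSMUSG00000073409, chr17:35424850-35430055, plus strand), a gene of the Qa-2 antigens, was at 78.0, 84.9, 72.8 and 60.8 CPM in Ndrg3 ctrl replicates 1 to 4 and at 122.9, 126.3, 140.2 and 99.0 CPM in Ndrg3 TKO replicates 1 to 4. The lowest Ndrg3 TKO library lay above the highest Ndrg3 ctrl library. The log2 fold change was 0.72 ± 0.12 (SE), or 1.65-fold. Its call was lost when Ndrg3 ctrl replicate 1 or 3 or Ndrg3 TKO replicate 1 or 2 was left out, with log2 fold changes of 0.70 to 0.75 in these 4 fits.

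H2-Q5 (ENSMUSG00000055413, chr17:35394126-35397800, plus strand) is annotated as a polymorphic pseudogene, that is, a gene coding in some strains only. Its Ndrg3 ctrl libraries lay within 34.8, 35.5, 35.6 and 37.8 CPM. In Ndrg3 TKO it was at 56.3, 63.8, 63.9 and 48.0 CPM. The tight control group and the Ndrg3 TKO group were clearly apart, with a log2 fold change of 0.69 ± 0.08, or 1.61-fold. Leaving out any single library kept this value between 0.64 and 0.77.

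H2-Q7 (ENSMUSG00000060550, chr17:35439155-35443773, plus strand), the more abundant Qa-2 gene, was at 367, 414, 397 and 366 CPM in Ndrg3 ctrl and at 467, 468, 518 and 423 CPM in Ndrg3 TKO. The gap between the groups was narrow, between Ndrg3 ctrl replicate 2 and Ndrg3 TKO replicate 4. The log2 fold change was 0.28 ± 0.07, or 1.21-fold, smaller than those of H2-Q5 and H2-Q6. H2-Q7 was not called in edgeR without a block or covariate. It was called with the replicate block, with the Y-linked covariate, and when either of those 2 libraries was left out.

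For all 3 genes Ndrg3 TKO replicate 4 was the lowest and replicate 3 the highest of its group. Their summed level ran from 465 to 535 CPM over the Ndrg3 ctrl libraries and from 570 to 722 CPM over the Ndrg3 TKO libraries, again without overlap. The difference was present among libraries with and without Y-linked counts. For H2-Q6, the mean log2 difference was 0.65 both in the 3 libraries with such counts (1 Ndrg3 ctrl, 2 Ndrg3 TKO) and in the 5 without. H2-Q5 differed by 0.84 and 0.52 in these sets, and H2-Q7 by 0.25 and 0.24.

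The balance among the copies also differed between the groups. H2-Q6 had 0.192 ± 0.0210 counts (mean ± SD, n = 4) for each count of H2-Q7 in Ndrg3 ctrl and 0.259 ± 0.0171 in Ndrg3 TKO. The lowest Ndrg3 TKO ratio, 0.234, lay above the highest Ndrg3 ctrl ratio, 0.212. The ratio of H2-Q5 to H2-Q7 was 0.0933 ± 0.00752 and 0.123 ± 0.00946 in the 2 groups, with no overlap either. Of all counts in the H2-Q members, H2-Q6 took 8.18 to 10.7% in Ndrg3 ctrl and 11.7 to 14.1% in Ndrg3 TKO, whereas H2-Q7 took 49.3 to 52.3% and 49.5 to 52.1%. These ratios rest on how the counting divided shared reads. When the H2-Q members were summed before the fit, which leaves their split out of account, the log2 fold change was 0.29 ± 0.06. The summed level ran from 741 to 796 CPM in Ndrg3 ctrl and from 846 to 994 CPM in Ndrg3 TKO.

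H2-Q4 (ENSMUSG00000035929, chr17:35379617-35385290, plus strand), which lies 8.84 kb before H2-Q5, showed a much smaller difference. It was at 259, 260, 252 and 277 CPM in Ndrg3 ctrl and at 273, 286, 271 and 275 CPM in Ndrg3 TKO. The highest control library lay above 3 of the 4 Ndrg3 TKO libraries, and the log2 fold change was 0.08 ± 0.05. A gene on the opposite strand over H2-Q4, Gm11131, had 485 to 721 counts per library, and whether counting used strand is not given in the sources used here.

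The H2-T genes overlapped between the groups. H2-T23 (ENSMUSG00000067212, chr17:36029773-36032855, minus strand), which encodes Qa-1, was at 293, 319, 257 and 285 CPM in Ndrg3 ctrl and at 266, 304, 276 and 277 CPM in Ndrg3 TKO. Its extremes were both control libraries, and its log2 fold change was −0.04 ± 0.07. A930015D03Rik lies opposite both H2-T23 and H2-T22, with 44 to 115 counts per library.

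H2-T22 (ENSMUSG00000056116, chr17:36037128-36042747, minus strand) was at 198, 219, 179 and 214 CPM in Ndrg3 ctrl and at 191, 217, 213 and 225 CPM in Ndrg3 TKO, with a log2 fold change of 0.06 ± 0.07. H2-T10 (ENSMUSG00000079491, chr17:36115876-36121465, minus strand), annotated as a polymorphic pseudogene, was at 45.4, 48.3, 48.9 and 61.9 CPM in Ndrg3 ctrl and at 42.3, 44.1, 52.0 and 53.9 CPM in Ndrg3 TKO. Its log2 fold change was −0.09 ± 0.10, and 1 high control library, replicate 4, set the upper end. Summed over the 3 H2-T genes, the libraries ran from 485 to 586 CPM in Ndrg3 ctrl and from 499 to 565 CPM in Ndrg3 TKO, and the fit of this sum gave a log2 fold change of −0.0049 ± 0.07. The signs of H2-T10 and H2-T23 turned when Ndrg3 ctrl replicate 4 and replicate 2, in this order, were left out.

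The remaining 3 members were barely detected. H2-Q2 (ENSMUSG00000091705, chr17:35342242-35346762, plus strand) had 25 to 47 counts per library, or 1.27, 1.47, 1.08 and 1.24 CPM in Ndrg3 ctrl and 1.16, 1.48, 1.24 and 0.768 CPM in Ndrg3 TKO. The groups overlapped, with a log2 fold change of −0.12 ± 0.24 that turned positive without Ndrg3 TKO replicate 4. H2-Q10 (ENSMUSG00000067235, chr17:35470089-35474563, plus strand), known as a secreted product of the liver, had 7, 3, 4 and 6 counts in Ndrg3 ctrl and 9, 5, 6 and 3 counts in Ndrg3 TKO. H2-Q1 (ENSMUSG00000079507, chr17:35320405-35325099, plus strand) had 1, 0, 1 and 2 counts in Ndrg3 ctrl and 0 in every Ndrg3 TKO library, below the floor in all 8. A difference in H2-Q1 or H2-Q10 was not detectable at this depth.

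The members lie in a stretch of 859 kb on chromosome 17, taken from the start of H2-D1 to the end of H2-T10 (chr17:35262730-36121465). It held 35 tested genes, 8 of them members, and H2-Q5, H2-Q6 and H2-Q7 were the 3 tested genes of the 49.6 kb they span. Of the 27 other tested genes 0 were called higher and 1 was called lower in edgeR, at a share of 0.355% of all tested genes called lower. This gene, Flot1, encodes a protein of membrane rafts and was named after its value was seen (log2 fold change −0.41 ± 0.08, adjusted p = 0.0316, edgeR). H2-D1, at the near end, had a log2 fold change of −0.05 ± 0.08, and H2-T24, a class Ib gene beside H2-T23, of −0.05 ± 0.05.

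**Figure D4:**
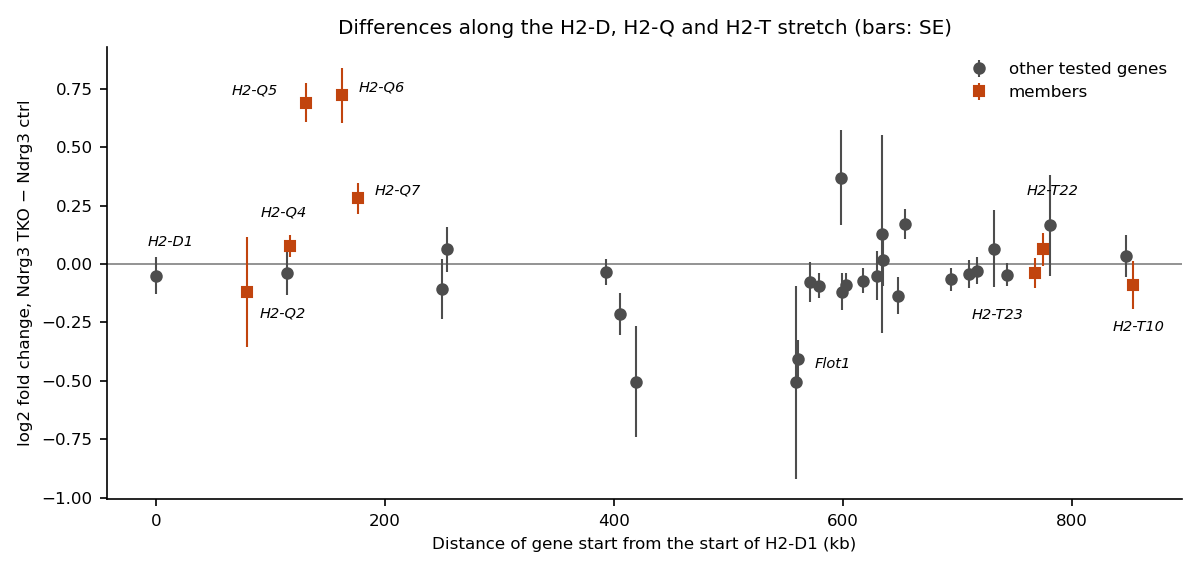
Log2 fold change (Ndrg3 TKO minus Ndrg3 ctrl, y axis) with its SE of the 35 tested genes against the distance of their start from that of H2-D1 (x axis, kb). Orange squares are members and grey circles other genes, and H2-Q5 (0.69), H2-Q6 (0.72) and H2-Q7 (0.28) stand together above H2-Q4 (0.08).

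Once group means were removed, the members could be compared in how they varied between mice of the same genotype. H2-Q6 and H2-Q7 varied together (Pearson's r = 0.83 over 8 libraries), as did H2-Q2 with H2-Q5 (0.81), H2-T22 with H2-T23 (0.75), H2-Q2 with H2-Q6 (0.70), H2-Q5 with H2-Q7 (0.63) and H2-Q2 with H2-T23 (0.62). H2-Q4 ran the other way from H2-Q6 (−0.44) and H2-Q7 (−0.40), and H2-T10 from H2-Q6 (−0.61). The 8 points share library depth and, for close copies, reads, so these values are descriptive. H2-Q2 had only 25 to 47 counts per library. Counting error thus weighs on its values here and on the choice of its nearest genes below.

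Among 10758 other tested genes with a mean of at least 100 counts, those most like each member in this residual variation were as follows. For H2-Q6 they were Stim2, Lrig1 and Tnfrsf9 (r = 0.976 to 0.980), and for H2-Q7 Rin3, Smad3 and Gab3 (0.964 to 0.977). H2-Q5 was nearest to Asrgl1, Hscb and Rnu73b (0.945 to 0.977). None of these 9 genes was called between the genotypes in edgeR. H2-Q4 was nearest to Tlcd1, Tnfrsf26 and Agrn (0.964 to 0.976), and H2-Q2 to Srebf1, Upf1 and Dusp7 (0.973 to 0.976). H2-T23 was nearest to Fuca2, Acot2 and Cdc42se1 (0.990 to 0.996), H2-T22 to Phf11c, Vegfb and 2810001G20Rik (0.972 to 0.981), and H2-T10 to Isca2, Rab24 and Prdm4 (0.976 to 0.980). With so many candidates and 8 points, values this near to 1 are to be read as an ordering only. The lists for different members shared no gene.

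The other genes of the class I pathway were compared in the same fit. Of 5 lists with 69 tested genes, 0 were called in edgeR and 0 in limma voom, 3 were called in DESeq2, and 11 had an unadjusted edgeR p under 0.05, beside 10.9% of all tested genes at this level. The classical heavy chains and the genes that load them held 16 tested genes. None of them passed an unadjusted p of 0.05 in edgeR or was called in DESeq2 or limma voom, and their median log2 fold change was −0.05. B2m, which encodes beta-2-microglobulin, the light chain shared by classical and most class Ib molecules, was at 1338 ± 123 CPM in Ndrg3 ctrl and 1441 ± 96.6 CPM in Ndrg3 TKO (log2 fold change 0.11 ± 0.08, edgeR adjusted p = 0.666). H2-K1, a classical heavy chain, was at 1326 ± 107 and 1325 ± 77.3 CPM (−0.0009 ± 0.07, edgeR adjusted p = 0.999). H2-D1, which shares all 4 promoter motifs with H2-Q6 and H2-Q7, was at 1156 ± 117 and 1117 ± 66.8 CPM (−0.05 ± 0.08, edgeR adjusted p = 0.868).

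Of 16 regulators of class I transcription 0 were called in edgeR or limma voom, and 1 had an unadjusted edgeR p under 0.05 and was called in DESeq2, at a median log2 fold change of −0.0034 over the list. This was Nlrc5, the transactivator of class I genes. It was at 651, 659, 723 and 737 CPM in Ndrg3 ctrl and at 808, 767, 798 and 773 CPM in Ndrg3 TKO. Every Ndrg3 TKO library was above every control library, by a small margin, and the log2 fold change was 0.18 ± 0.06 (edgeR adjusted p = 0.229). Nfkb1, a subunit of the factor that binds kappaB elements, was at 345 and 347 CPM (log2 fold change 0.0061 ± 0.05, edgeR adjusted p = 0.981).

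The 26 interferon-induced genes tested had a median log2 fold change of −0.15, with 21 of 26 below 0. In edgeR, DESeq2 and limma voom 0 were called, and 7 had an unadjusted edgeR p under 0.05, beside 10.9% of all tested genes. Named after their values were seen, these were Ifit2, Oasl2, Ifih1, Gbp2, Gbp3, Irgm1 and Tgtp1, all lower in Ndrg3 TKO. Oasl2 and Gbp3 were lower without overlap, as were 3.59% of all tested genes. Gbp4, a guanylate-binding protein, had a log2 fold change of 0.08 ± 0.06 (edgeR adjusted p = 0.648), and Ifi47, an immunity-related GTPase, of −0.16 ± 0.08 (edgeR adjusted p = 0.494). The relation of this list to the difference in H2-Q5, H2-Q6 and H2-Q7 was not tested.

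Of 6 tested class Ib and class I-like genes outside the 10 members 0 were called in edgeR or limma voom, and 1 had an unadjusted edgeR p under 0.05 and was called in DESeq2, with a list median of −0.04. That gene was Fcgrt, the neonatal Fc receptor, named after its value was seen (−0.49 ± 0.13, edgeR adjusted p = 0.127). H2-T24 was at 106 and 103 CPM (edgeR adjusted p = 0.792) and H2-M3, which presents formylated peptides, at 42.5 and 43.1 CPM (edgeR adjusted p = 0.918). In the table, 16 of 25 listed genes never exceeded 3 counts, most of them of the H2-M family.

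Receptors that can bind class Ib molecules gave 5 tested genes, of which 0 were called in edgeR or limma voom and 1 in DESeq2, with a list median of 0.06. Cd8a and Cd8b1, the chains of the CD8 coreceptor, had log2 fold changes of −0.02 ± 0.06 and −0.02 ± 0.06 (edgeR adjusted p = 0.948 and 0.929). The 2 with an unadjusted edgeR p under 0.05, named after their values were seen, were Cd160 (0.33 ± 0.09, edgeR adjusted p = 0.121, called in DESeq2) and Klrd1 (0.31 ± 0.11, edgeR adjusted p = 0.32). Klrd1, which encodes CD94, the partner chain of the Qa-1 receptors, overlapped between the groups. The NKG2 genes Klrc1 and Klrc2 did not pass the filter. Klrc1 had 16, 7, 13 and 4 counts in Ndrg3 ctrl and 4, 7, 2 and 0 in Ndrg3 TKO. Klrc2 had 3, 2, 6 and 5 counts in Ndrg3 ctrl and 3, 2, 1 and 0 in Ndrg3 TKO.

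**Figure D5:**
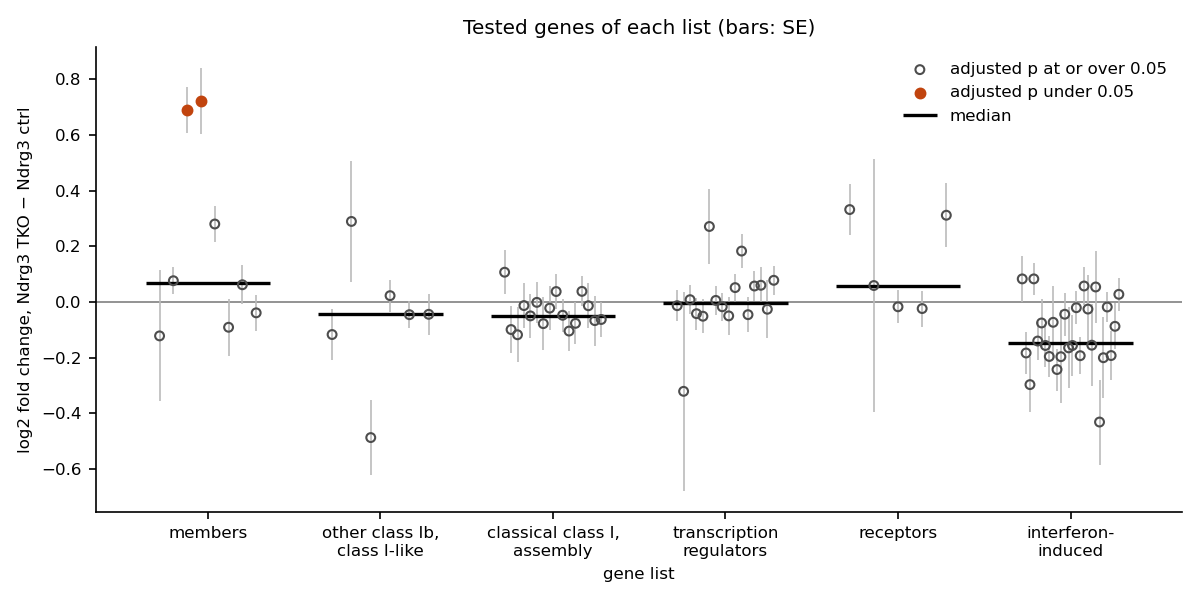
Log2 fold change (Ndrg3 TKO minus Ndrg3 ctrl, y axis) with its SE of each tested gene, by list (x axis). Filled points have an edgeR adjusted p under 0.05 and black lines are list medians, and the 2 filled points, H2-Q5 and H2-Q6, are both members.

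Markers of other cells were summed in each library beside these values. NKT and gamma delta T cell markers (8 genes, 5 tested) ran from 150.6 to 180.7 CPM in Ndrg3 ctrl and from 158.6 to 199.6 CPM in Ndrg3 TKO. Slamf6 alone made up most of this sum, at means of 145.5 CPM in Ndrg3 ctrl and 155.0 CPM in Ndrg3 TKO. The sum thus says little about the other genes of the list. Of the tested markers, 1 was called, Klrb1c, which encodes the NK1.1 receptor, at 0.268, 0.639, 0.203 and 0.110 CPM in Ndrg3 ctrl and 1.56, 1.48, 2.04 and 2.03 CPM in Ndrg3 TKO (log2 fold change 2.62 ± 0.36, edgeR adjusted p = 0.00149). Klrb1c was thus higher in every Ndrg3 TKO library, as were H2-Q5, H2-Q6 and H2-Q7, and its part in their difference was not tested.

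B cell markers (7 genes, 1 tested) summed to 11.2 to 13.3 CPM in Ndrg3 ctrl and 8.72 to 9.52 CPM in Ndrg3 TKO, and the tested gene, Cd79b, was called in DESeq2 but not in edgeR (−0.43 ± 0.10, edgeR adjusted p = 0.0529) or limma voom. Cd79b made up most of this sum, at means of 11.8 CPM in Ndrg3 ctrl and 8.73 CPM in Ndrg3 TKO. Myeloid and dendritic cell markers (12 genes, 6 tested) summed to 20.7 to 26.5 and 18.7 to 20.9 CPM, with Xcr1 and Siglech never above 3 counts, and thymic epithelial markers (6 genes, 1 tested) to 1.97 to 3.24 and 1.44 to 2.74 CPM. Both lists had 0 calls in edgeR, DESeq2 and limma voom, with 2 and 0 genes under an unadjusted edgeR p of 0.05. The highest tested genes of these lists were Cd74 (16.1 and 12.9 CPM), Cd68 (3.81 and 4.14 CPM) and Epcam (2.29 and 1.67 CPM). The B cell sum was lower in every Ndrg3 TKO library than in any Ndrg3 ctrl library, Cd79b was also called with the Y-linked covariate, and the sums of the other two lists overlapped. The part of these markers in the difference of the members was not tested.

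Markers of immature and of CD4 single-positive thymocytes (6 genes, 3 tested, Cd4 among these) summed to 17.3 to 26.8 and 21.4 to 29.2 CPM. There were 0 calls in edgeR and limma voom. Dntt, which adds bases at receptor junctions, was called in DESeq2 (0.45 ± 0.11, edgeR adjusted p = 0.0783). Dntt made up most of this sum, at means of 15.6 CPM in Ndrg3 ctrl and 21.3 CPM in Ndrg3 TKO. Rag1, which cuts receptor genes, was at 3.31 ± 1.92 and 2.42 ± 1.54 CPM. Of 13 markers of mature CD8SP cells 0 were called in edgeR, DESeq2 or limma voom, 4 had an unadjusted edgeR p under 0.05, and 4 were called with the Y-linked covariate. Among those with such a p, and named after their values were seen, were Klf2, S1pr1 and Ccr7, genes of egress and homing, with log2 fold changes of −0.26, −0.19 and −0.26. The part of these genes in the difference of H2-Q5, H2-Q6 and H2-Q7 was not tested.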

How the data were processed

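Total RNA of sorted CD8SP thymocytes was sequenced from stranded, ribosome-depleted libraries of 8 mice. Per the labels and the study's methods, the authors used cutadapt for trimming, STAR for alignment to GRCm38.p4 and featureCounts for counting per gene, and deposited raw counts, without normalization, for 47937 genes. All 8 columns were used. Symbols, positions and exonic lengths came from GENCODE M21 (GRCm38), which matched 47310 identifiers (98.7%).

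The members and gene lists were chosen with earlier results of these data known. Groups and replicate numbers came from the labels. In edgeR 4.0.16 (R 4.3.3), the 14633 genes that passed filterByExpr were tested by quasi-likelihood (robust) after TMM scaling, without a block. The SE was derived from the F statistic and the log2 fold change. DESeq2 1.42.0 and limma 3.58.1 (voom) were alternatives, with other size factors, filters, a replicate block, a Y-linked covariate, and each library left out. Replicates of a group differed by 9.26 to 32.3 per gene in chi-square, so no library was counted as a copy of another. Residual correlations used log2(CPM + 0.5). The fit was checked on simulated counts.

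Every member was named, with H2-K1, H2-D1, B2m, Nlrc5 and Ndrg3. From each list, up to 4 called genes were named, or the 2 most abundant where 0 were called, and for each tested member the 3 genes nearest in residual correlation. Motifs and shared windows were counted on RefSeq promoters and GENCODE transcripts. The floor of 3 counts covers counting error only, as molecular identifiers were not used and PCR copies cannot be removed. Single values of some list genes are not reported here.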

Additional observations from a re-analysis of the deposited data

Results flagged for a closer look

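Dixon's criterion for 4 values, which flags about 1 group in 20 by chance, was applied to 56 groups of values. It picked out a single library in 3 of the named genes, where 2.8 flags were expected by chance. H2-D1 in Ndrg3 TKO replicate 2 was at 1217 CPM against 1074 to 1095 CPM in the others. H2-T24 in Ndrg3 ctrl replicate 2 was at 113.2 CPM against 103.6 to 104.7 CPM. Dntt in Ndrg3 ctrl replicate 1 was at 18.7 CPM against 14.2 to 14.8 CPM. No member with more than 3 counts in any library had such an outlying value.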

How the results depend on the processing

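The number of genes called, 168, became 309 with DESeq2, 274 with no filter on low counts, 437 with the Y-linked covariate, 92 in the libraries without Y-linked counts only (3 against 2, a setting chosen after seeing the data) and 90 to 158 with 1 library left out. With the replicate block it was 800. Same-numbered libraries correlated at 0.24, 0.51, −0.06 and 0.39 in their deviations from the group means, and 3 of 4 correlated best with their own number. Since 1 of these values was negative, the numbers were not taken as pairs. The negative value was that of replicate 3, where only the Ndrg3 TKO library held Y-linked counts. In every other pair the libraries were alike in this. Whether this lowered the value was not tested, and the calls given without a block depend on this choice. Members called numbered 2 to 3 across tools, filters and covariates, and 1 to 3 with 1 library left out. H2-Q5 was called in all 16 alternative fits, which is a description, since the members were named with this contrast known. H2-Q6 was not called with no filter or without Ndrg3 ctrl replicate 1 or 3 or Ndrg3 TKO replicate 1 or 2. H2-Q7 was called in 6 alternatives: DESeq2, no filter, the replicate block, the Y-linked covariate, and without Ndrg3 ctrl replicate 2 or Ndrg3 TKO replicate 4. With 1 library left out, log2 fold changes ran from 0.64 to 0.77 for H2-Q5, 0.64 to 0.81 for H2-Q6 and 0.23 to 0.33 for H2-Q7. The log2 fold change of H2-Q2 ran from −0.2613 to 0.0355 with 1 library left out, turning positive without Ndrg3 TKO replicate 4. That of H2-T10 ran from −0.1499 to 0.0132, positive without Ndrg3 ctrl replicate 4, and that of H2-T23 from −0.09 to 0.0101, positive without Ndrg3 ctrl replicate 2. In the 5 lists of class I pathway genes, 0 called genes became 3 with DESeq2 (Fcgrt, Nlrc5, Cd160), 1 with no filter (Cd160), 1 with the Y-linked covariate (Fcgrt), 10 with the replicate block (the 3 called in DESeq2, and 7 interferon-induced genes, which were lower) and 0 to 1 with 1 library left out. With the Y-linked covariate and the replicate block, in this order, 4 and 3 mature CD8SP markers and 2 and 2 NKT and gamma delta T cell markers were called. So were 1 and 1 markers of immature and CD4 single-positive thymocytes, and 1 and 1 B cell markers. H2-Q7 lay 2.55 times above H2-Q6 per kilobase in Ndrg3 ctrl and 5.21 times above it in CPM not divided by length, since its annotated exons are longer. The residual r of H2-Q6 and H2-Q7 ran from 0.70 to 0.96 with 1 library left out. The cause of the other changes was not tested. Counts of H2-Q1 and H2-Q10 were too few for any of these settings to inform.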
